A study of Mus musculus with 19 samples.

Results

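Long noncoding RNAs were measured in mouse lung after 28 days of oral exposure to 8 polycyclic aromatic hydrocarbons (PAHs) given as a mixture. The set was made up of 8 named genes, Neat1, Malat1, Pvt1, Gas5, Snhg1, Snhg12, H19 and Meg3. Their probes were taken by matching each probe's RefSeq accession to the gene, which gave 9 probes of 6 genes among the 55681 probes of the array. Gas5 and H19 had no probe by accession and were dropped under this rule. The scanner files themselves name 13 more probes after a member (5 as NEAT1, 3 as NEAT2, which is a synonym of Malat1, and 5 as H19), and these are described apart from the 9.

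The animals were adult male MutaMouse (about 12 weeks old, a transgenic mutation-reporter strain), and all of them carried the reporter transgene. The vehicle group D0 received olive oil by gavage (5 mice), and D1, D2 and D3 received the mixture at 15 (4 mice), 30 (5 mice) and 60 mg benzo[a]pyrene (BaP) equivalents per kg body weight per day (4 mice). Lungs were collected 72 h after the last dose. One D2 mouse carries the number 23, which lies among the numbers of the D1 mice, and the group sizes in the methods place 1 mouse more in the low dose and 1 fewer in the middle dose than the labels do. It was kept in D2 as labelled, and probes whose adjusted p crosses the threshold with it in D1 are given beside the result. Each lung RNA was labelled with Cy5 (red) and hybridized against 1 common reference RNA from mouse cell lines in Cy3 (green), so a level is given below as the log2 ratio of lung over reference, and a change as the difference between group means of that ratio. Dyes were not swapped, so the ratio itself is open to dye bias and only changes of the same probe are compared. The position of an array on its slide followed the dose on all 3 slides, and the effects of position and dose cannot be told apart.

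Long noncoding RNAs act as transcripts and are not translated into protein. Neat1 is the scaffold of paraspeckles, which are nuclear bodies built on the RNA itself, and Malat1, encoded next to it, is an abundant RNA of nuclear speckles, where splicing factors are stored. Neat1 and Pvt1 are known targets of p53, and Pvt1 lies beside the proto-oncogene Myc. Gas5, Snhg1 and Snhg12 carry small nucleolar RNAs in their introns, and their spliced transcripts are degraded by nonsense-mediated decay. H19 and Meg3 are imprinted genes transcribed from the maternal chromosome and are highest in fetal tissue.

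Promoter sequences were read for the members that a RefSeq promoter table (GRCm38.p6) holds, since PAHs bind the aryl hydrocarbon receptor (AHR) and a promoter with the core of its response element is of interest beside the values. Each window ran from 250 bases before to 50 bases after the transcript start, on the strand of the gene, and capitals mark GCGTG on either strand. The 3 windows printed are those of Malat1 (chr19:5802623-5802922, minus strand), Snhg1 (chr19:8723237-8723536, plus strand) and Snhg12 (chr4:132308428-132308727, plus strand).
Malat1: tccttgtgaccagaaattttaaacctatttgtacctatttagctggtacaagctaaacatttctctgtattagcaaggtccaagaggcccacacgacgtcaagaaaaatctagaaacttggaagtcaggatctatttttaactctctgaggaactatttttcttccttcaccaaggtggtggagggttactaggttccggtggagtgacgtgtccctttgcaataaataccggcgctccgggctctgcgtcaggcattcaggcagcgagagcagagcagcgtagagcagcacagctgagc
Snhg1: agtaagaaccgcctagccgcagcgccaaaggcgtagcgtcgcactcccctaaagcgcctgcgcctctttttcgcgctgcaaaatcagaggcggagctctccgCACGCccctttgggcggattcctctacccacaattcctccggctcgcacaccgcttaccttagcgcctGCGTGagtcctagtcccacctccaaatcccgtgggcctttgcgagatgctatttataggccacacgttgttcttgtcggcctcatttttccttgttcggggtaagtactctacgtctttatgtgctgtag
Snhg12: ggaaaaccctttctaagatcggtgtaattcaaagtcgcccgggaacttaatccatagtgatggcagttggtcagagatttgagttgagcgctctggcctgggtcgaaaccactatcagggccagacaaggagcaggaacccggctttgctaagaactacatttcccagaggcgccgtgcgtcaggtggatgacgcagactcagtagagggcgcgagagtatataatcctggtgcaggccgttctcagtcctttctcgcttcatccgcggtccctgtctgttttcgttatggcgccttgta

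The Snhg1 window held GCGTG at 2 places, starting 148 and 80 bases before the transcript start, and the windows of Malat1, Snhg12 and Meg3 (which has 2) held none. Of 2 windows of Gas5, which has no probe by accession, 1 held GCGTG at 2 places, starting 157 and 95 bases before the start, and the other held none. GCGTG occurred in 32.4% of the 32851 windows of the table. The E-box CACGTG, which reads the same on both strands and does not overlap GCGTG as searched, occurred in 7.15% of them and in 0 of the 5 windows of the members with a probe by accession. Neat1, Pvt1 and H19 were not in the promoter table.

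Detection was complete for most members. The red signal was well above background in 18 of 18 mice for Neat1, Malat1, both Pvt1 probes, Snhg1, Snhg12 and the brightest Meg3 probe. The second Meg3 probe (A_55_P2033407) was above background in 16 of 18 mice and the third (A_52_P196568) in 1 of 18. This last probe was not tested, which left 8 tested probes by accession. Of the 13 probes named in the scanner files, 12 were tested, and the remaining H19 probe (A_30_P01028007) was above background in 6 of 18 mice. Across the arrays 54.5% to 64.7% of spots were above background in red, with median signals of 114 to 152, and 0 spots were saturated. Markers of lung epithelium, endothelium, leukocytes and mesenchyme were detected in all 18 mice.

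No member was called at any dose when a call needed an adjusted p of at most 0.05 (limma, Benjamini-Hochberg over all 30999 probes) and a change of at least 1.5-fold. The count was 0 of 8 at D1, D2 and D3 and for a linear trend over dose, where 1.06%, 0.626%, 2.43% and 1.53% of all tested probes were called. With the adjusted p alone, 0 of 8 passed at D1 and at D2, 1 of 8 at D3 and 1 of 8 for the trend, all of them Neat1. The share of all tested probes was 4.74% at D1, 2.09% at D2, 12.4% at D3 and 6.56% for the trend, so the 1 of 8 at D3 is near the background. At an unadjusted p under 0.05 the counts were 3, 1 and 3 of 8 at the 3 doses, against 19.8%, 14.7% and 26.2% of all tested probes. Together with the probes named in the scanner files, 3, 1 and 7 of 20 passed the adjusted p at D1, D2 and D3 and 5 of 20 for the trend, every one of them lower than in D0 and every one a probe of Neat1 or Malat1. These 20 are not independent, since several probes read the same transcript. All these counts are from the fit without a slide block. With slide as a block Malat1 by accession also passed at D1, D2 and D3, and Pvt1 at D3. No share over all probes is given for that fit.

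**Figure D1:**
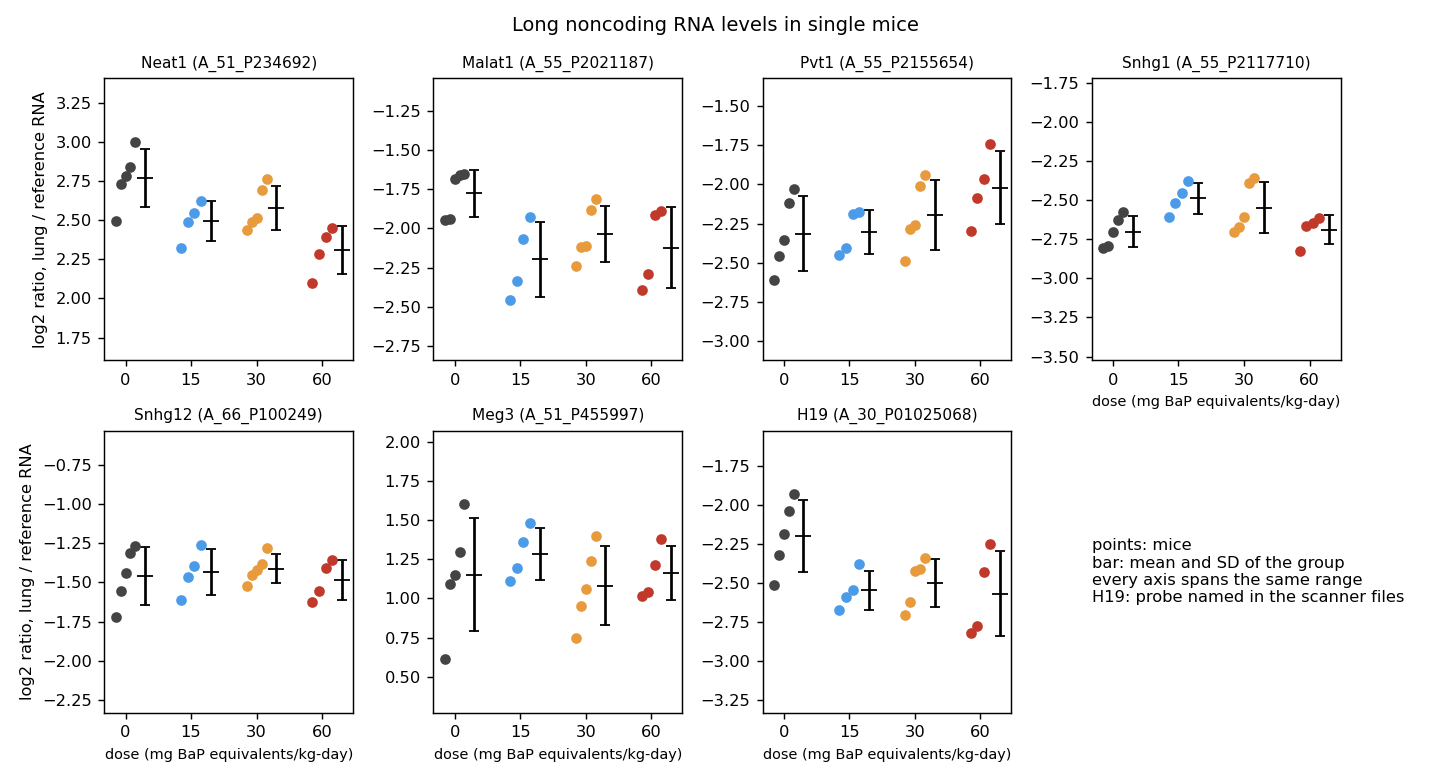
Log2 ratio of lung over reference RNA (vertical axis) by dose in mg BaP equivalents per kg per day (horizontal axis), with 1 point for each mouse and the mean and SD of each group beside the points. Neat1 fell from a mean of 2.77 in D0 to 2.31 in D3 without overlap of the mice, while the groups of Snhg12 and Meg3 overlapped at every dose.

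Neat1, the paraspeckle scaffold, was lower in D3 than in D0. The probe matched by accession (A_51_P234692) read 2.73, 2.50, 3.00, 2.84 and 2.78 in the 5 D0 mice. It read 2.32, 2.49, 2.62 and 2.54 in D1, and 2.44, 2.52, 2.49, 2.77 and 2.69 in D2. The 4 D3 mice read 2.39, 2.10, 2.45 and 2.29. All 4 D3 mice lay below the lowest D0 mouse, while D1 and D2 overlapped D0. The change at D3 was -0.46 (SE 0.10, 1.38-fold lower, 95% interval -0.68 to -0.25), with a limma adjusted p of 0.00623. The changes at D1 and D2 were -0.28 (adjusted p = 0.134) and -0.19 (adjusted p = 0.383), and the fitted trend from D0 to D3 was -0.41 (adjusted p = 0.0232). The trend no longer passed in 7 of 33 alternatives, among them the red channel alone (-0.29, adjusted p = 0.0604). In order of their means the groups ran D0, D2, D1, D3. No neighbours in this order passed the limma adjusted p (D2 against D0 0.383, D2 against D1 0.847, D3 against D1 0.746).

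The 5 probes named NEAT1 in the scanner files moved with it. Over the 6 probes the change at D3 lay between -0.46 and -0.33, and 5 of 6 passed the adjusted p. With median centring 0 of these 5 passed. Besides that, A_30_P01020135 did not pass without D3 mouse 32 (adjusted p = 0.0506), and A_30_P01025798 did not pass with the red channel alone (adjusted p = 0.0661) and without D3 mouse 32 (adjusted p = 0.0564) or 35 (adjusted p = 0.0649). The sixth, A_30_P01023251, changed by -0.33 with a limma adjusted p of 0.0536, and passed in 10 of 31 alternatives, among them slide as a block (-0.33, adjusted p = 0.0217). For A_30_P01021631 the drop was also present at D1 (-0.26, adjusted p = 0.0478), and at D2 the same probe stood at -0.26 (adjusted p = 0.0596, and 0.0369 with slide as a block). The D1 value of this probe no longer passed in 20 of 31 alternatives and turned positive in 1 of 31 (0.13, median centring). With mouse 23 counted in D1, A_30_P01029720 also passed at D1 (-0.29, adjusted p = 0.0487) and A_30_P01023251 at D3 (-0.33, adjusted p = 0.0443). Averaged over the 6 probes, Neat1 changed by -0.40 at D3 (95% interval -0.58 to -0.22, adjusted p = 0.00551). Between probe pairs the correlation over the 18 mice ran from 0.670 to 0.952, with all probes hybridized from the same labelled RNA.

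The Neat1 difference was seen on each slide, at -0.37 on the first (2 D3 and 2 D0 arrays), -0.45 on the second (2 and 2) and -0.70 on the third (1 and 1). The D3 array of the third slide is the second array of mouse 35, whose first array is on the second slide, so the third slide adds no further D3 animal. With each array centred on its median in place of loess, the change at D3 was -0.19 with a limma adjusted p of 0.895, and at D1 and D2 it turned to 0.13 and 0.06. No member probe came near the threshold at D3 in that setting, where the smallest limma adjusted p was 0.743 (Pvt1 A_55_P2155654). The probe is bright, with red signals of 23986 to 71919, and the part of intensity-dependent normalization in the change was not tested beyond that alternative.

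**Figure D2:**
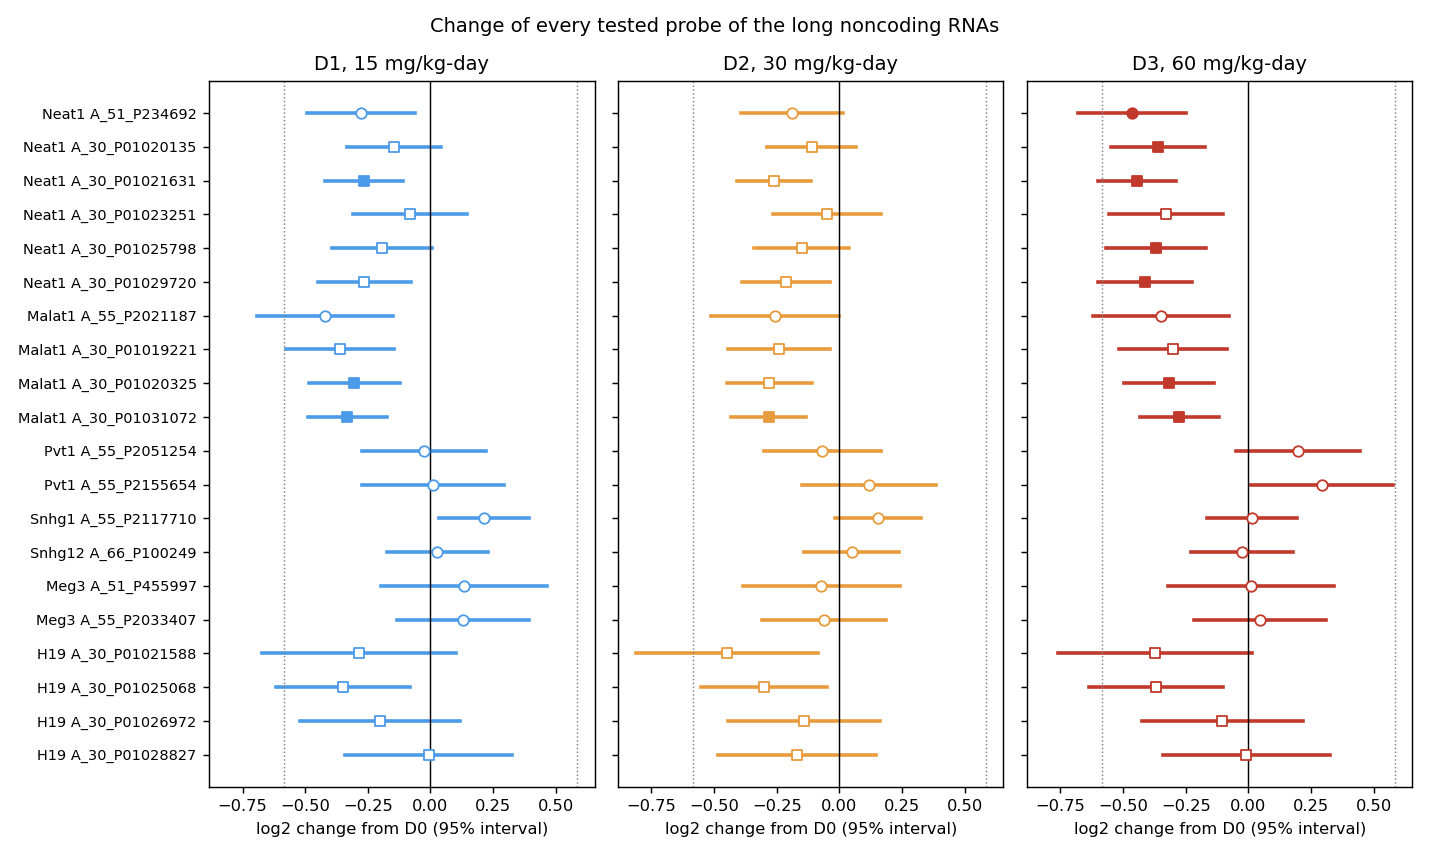
Log2 change from D0 (horizontal axis) of the 20 tested probes at D1, D2 and D3, with the 95% interval of the fit. Circles are probes matched by accession, squares probes named in the scanner files, filled symbols passed the adjusted p, and dotted lines mark 1.5-fold. Filled symbols appear for Neat1 and Malat1 alone, all on the lower side and none beyond 1.5-fold.

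Malat1, the nuclear speckle RNA, had lower means at every dose, but its probe by accession did not pass the test. That probe (A_55_P2021187) read -1.94, -1.95, -1.68, -1.65 and -1.66 in D0. In D1 it read -2.33, -2.46, -1.93 and -2.07, and in D2 -2.12, -2.11, -2.24, -1.88 and -1.81. In D3 it read -2.29, -2.40, -1.92 and -1.89. In D1, D2 and D3 every mouse lay below the D0 mean, and each group overlapped the lower D0 mice. The changes were -0.42 at D1 (95% interval -0.69 to -0.15, limma adjusted p = 0.068), -0.26 at D2 (adjusted p = 0.333) and -0.35 at D3 (adjusted p = 0.0883). In order of their means the groups ran D0, D2, D3, D1, and the differences between doses were 0.16 (D2 against D1), 0.07 (D3 against D1) and -0.09 (D3 against D2), with adjusted p-values of 0.738 or more.

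Of the 3 probes named NEAT2, A_30_P01031072 passed the adjusted p at all 3 doses, with changes of -0.33, -0.28 and -0.28 and no overlap with D0. A_30_P01020325 passed at D1 (-0.30, limma adjusted p = 0.0492) and at D3 (-0.32, adjusted p = 0.0206). A_30_P01019221 did not pass, at -0.36, -0.24 and -0.30. It passed in 8 of 32 alternatives at D1 and in 4 of 32 at D3, among them slide as a block (-0.36, adjusted p = 0.0202 at D1, and -0.28, adjusted p = 0.0372 at D3). With the slide block A_30_P01020325 passed at D2 too (-0.28, adjusted p = 0.0258). A_30_P01020325 at D1 no longer passed the adjusted p in 20 of 31 alternatives and turned positive in 1 of 31, and at D3 it no longer passed in 7 of 31. A_30_P01031072 no longer passed in 18 of 31 at D2 and in 5 of 31 at D3, and at D1 it no longer passed in 1 of 31 and turned positive in 1 of 31. With mouse 23 counted in D1, A_30_P01020325 at D1 (-0.27, adjusted p = 0.0641) and A_30_P01031072 at D2 (-0.28, adjusted p = 0.062) did not pass. The mean of the 4 Malat1 probes changed by -0.35 at D1 (adjusted p = 0.0254), -0.26 at D2 (adjusted p = 0.108) and -0.31 at D3 (adjusted p = 0.025). The correlation between probe pairs was 0.683 to 0.904 over 18 mice.

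For the probe by accession the slides gave -0.45, -0.26 and -0.41 at D1 and -0.40, -0.23 and -0.23 at D3. With slide as a block in the fit, the probe passed the adjusted p at D1 (-0.38, adjusted p = 0.00317), D2 (-0.26, adjusted p = 0.0281) and D3 (-0.32, adjusted p = 0.00356). Without D1 mouse 24 the change at D1 was -0.51 (adjusted p = 0.0426). With median centring in place of loess the changes of A_55_P2021187 were much smaller, at -0.10 (D1, adjusted p = 0.921), -0.03 (D2, adjusted p = 0.989) and -0.13 (D3, adjusted p = 0.940).

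**Figure D3:**
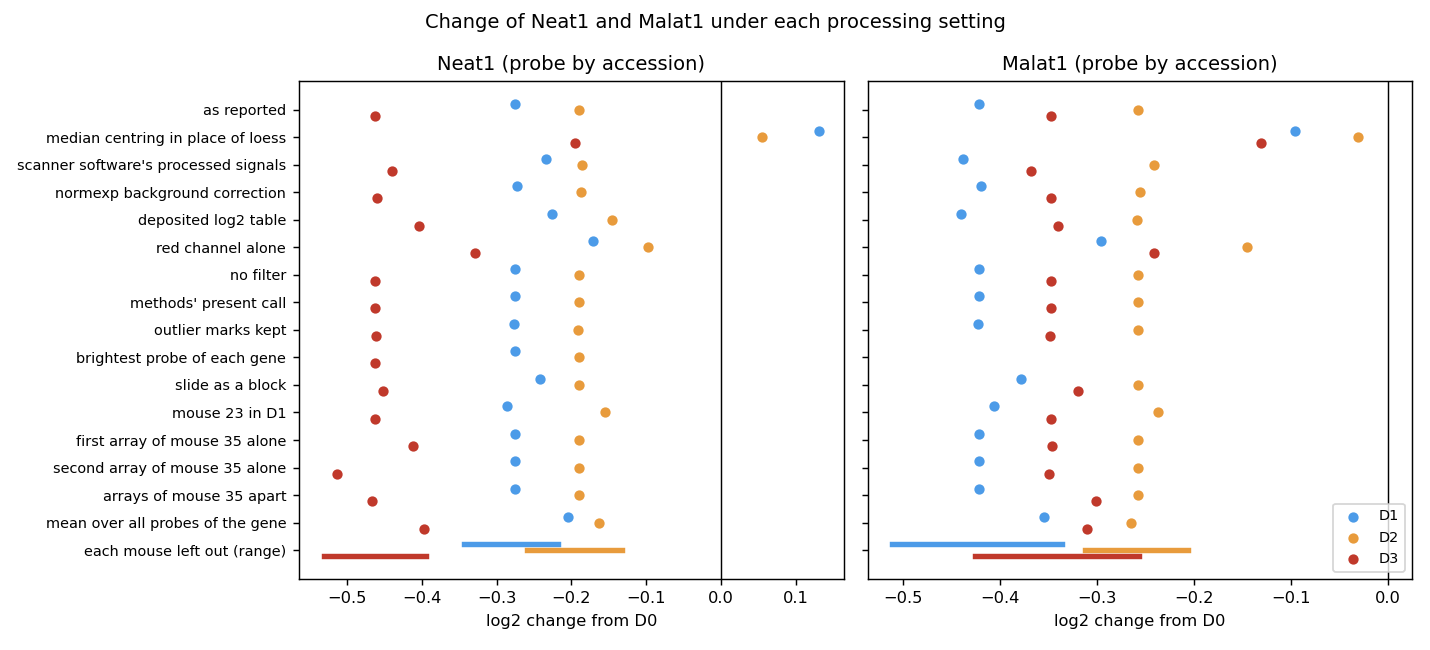
Log2 change from D0 (horizontal axis) of Neat1 and Malat1 by their probes matched by accession, for each processing setting (rows), with D1, D2 and D3 in separate colours and bars for the range when each mouse was left out in turn. Median centring moved Neat1 at D1 to 0.13 and at D2 to 0.06, and all other settings left every change of these 2 probes below 0.

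Pvt1, the transcript beside Myc, had a higher mean in D3 than in D0. By its brighter probe the difference did not pass the adjusted p, and it passed in 2 of 32 alternatives. The brighter probe (A_55_P2155654) read -2.12, -2.03, -2.36, -2.61 and -2.46 in D0 and -1.96, -1.74, -2.30 and -2.09 in D3. These groups overlapped. The change at D3 did not pass, at 0.29 (95% interval 0.01 to 0.58, unadjusted p = 0.0428, limma adjusted p = 0.174), against 0.01 at D1 and 0.12 at D2. The second probe (A_55_P2051254) changed by 0.20 at D3 (adjusted p = 0.304) and passed there in 0 of 31 alternatives. Between both probes the correlation was 0.481 over 18 mice. On the 3 slides the brighter probe stood at 0.22, 0.27 and 0.42 at D3. With slide as a block in the fit, A_55_P2155654 passed at D3 (0.26, limma adjusted p = 0.0261) and for the trend (0.28, adjusted p = 0.0224), and with the red channel alone it passed at D3 (0.38, adjusted p = 0.0122) and for the trend (0.39, adjusted p = 0.0102). Myc itself changed by -0.21, -0.11 and -0.05 at the 3 doses, with a smallest adjusted p of 0.204.

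The snoRNA host transcripts Snhg1 and Snhg12 did not pass at any dose. Snhg1 (A_55_P2117710) ranged from -2.81 to -2.58 in D0, from -2.61 to -2.38 in D1, from -2.71 to -2.36 in D2 and from -2.83 to -2.62 in D3. Its change was 0.21 at D1 (unadjusted p = 0.0232, limma adjusted p = 0.169), 0.15 at D2 and 0.01 at D3, and 4 of 4 D1 mice lay above the D0 mean. Snhg12 (A_66_P100249) had means of -1.46, -1.43, -1.41 and -1.49 from D0 to D3. Its changes were 0.03, 0.05 and -0.03, and the 95% interval at D3 was -0.23 to 0.18, so a change of 1.5-fold (0.58 on the log2 scale) in either direction lies outside it.

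The imprinted RNA Meg3 was likewise not called. Its brightest probe (A_51_P455997) had the widest D0 group of the members, from 0.61 to 1.60 (SD 0.36). The means were 1.15, 1.29, 1.08 and 1.16, and the change at D3 was 0.01 (95% interval -0.32 to 0.34). The dimmer probe A_55_P2033407 changed by 0.13, -0.06 and 0.05 at the 3 doses. The correlation between both was 0.481 over 18 mice.

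H19 was read by probes named in the scanner files. Its 4 tested probes had lower means than D0 at every dose, by 0.01 to 0.45 on the log2 scale, and 0 of 4 passed the adjusted p in the limma fit. An unadjusted p under 0.05 was reached by 1 of 4 at D1, 2 of 4 at D2 and 1 of 4 at D3, against 19.8%, 14.7% and 26.2% of all tested probes. The brightest (A_30_P01025068) read -2.04, -2.19, -1.93, -2.32 and -2.51 in D0 and -2.43, -2.25, -2.77 and -2.82 in D3. Both groups overlapped, and the change was -0.37 (adjusted p = 0.0666). With slide as a block in the fit, A_30_P01025068 passed at D1 (-0.36, limma adjusted p = 0.0452) and D3 (-0.40, adjusted p = 0.0154), and A_30_P01021588 passed at D2 (-0.45, adjusted p = 0.0254) and D3 (-0.41, adjusted p = 0.0188). A_30_P01025068 passed at D3 in 5 of 32 alternatives, among them those without D3 mouse 32 (-0.47, adjusted p = 0.0263) or D0 mouse 5 (-0.45, adjusted p = 0.0281). The probes A_30_P01026972 and A_30_P01028827 changed by -0.10 and -0.01 at D3. Both were dim, with mean red signals of 138 and 139, against 307 for A_30_P01025068 and 216 for A_30_P01021588. The mean over the 4 probes changed by -0.21 at D3 (95% interval -0.51 to 0.08, adjusted p = 0.361). The correlation between these probes was 0.454 to 0.810.

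Between doses, 0 of 8 probes by accession passed the adjusted p or were called in D2 against D1, D3 against D2 or D3 against D1, by limma. An unadjusted p under 0.05 was reached by 0, 2 and 1 of 8, against 9.83%, 11.7% and 7.67% of all tested probes. Of all tested probes 0% were called and 0% passed the adjusted p in D2 against D1. The called share was 0.106% and the share with the adjusted p alone was 0.181% in D3 against D2, and they were 0.145% and 0.206% in D3 against D1. For Neat1, D3 against D2 was -0.27 (unadjusted p = 0.016, adjusted p = 0.312).

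For scale, the change of known targets of p53 and AHR in the same mice at D3 was 3.12 for Cdkn1a (the cell cycle inhibitor p21), 2.19 for Ccng1, 0.80 for Mdm2, 3.61 for Cyp1a1 and 2.68 for Cyp1b1, all called. Neat1 fell by 0.46 in these same D3 mice, and Pvt1 was not called.

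Levels of some members went together from mouse to mouse. All 15 pairs of the 6 members with a probe by accession were correlated over the 18 mice, with permutation tests of 100000 resamples adjusted over the 15 pairs. Mice were shuffled across dose groups and slides, so differences between doses and slides enter these p-values. The r within slides and after subtracting group means has no p. Neat1 and Malat1 rose and fell together, with r = 0.76 (permutation p = 0.00022, adjusted p = 0.0033) and Spearman's rho = 0.73 (adjusted permutation p = 0.00615). Without the 2 mice farthest from the Neat1 median r was 0.67, after subtracting each dose group's mean it was 0.68, and it was 0.68 on the first slide (8 mice) and 0.81 on the second (6 mice with no array elsewhere). The third slide holds too few mice for a value. This relation kept its sign and passed the adjusted permutation test under each of the 26 alternatives tried, with r between 0.64 (red channel alone) and 0.95 (median centring). With median centring most of the 15 pairs passed, so that setting does not set this pair apart.

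Malat1 and Snhg1 ran opposite, with r = -0.69 (permutation p = 0.00165, adjusted p = 0.0124) and rho = -0.73 (adjusted permutation p = 0.00615). Without the 2 mice farthest from the Malat1 median r was -0.73, and after subtracting group means it was -0.71. It was -0.21 on the first slide and -0.90 on the second, so the relation did not hold on both slides. It also changed with the processing, to r = 0.70 with median centring in place of loess and to r = -0.06 with the red channel alone. Pvt1 ran opposite to Neat1 (r = -0.63) and to Malat1 (r = -0.61), each with a permutation p adjusted to 0.0254, but by rank the adjusted permutation p was 0.0837 and 0.0645. Within slides r was -0.58 and -0.32 for Neat1 and Pvt1, and -0.09 and -0.62 for Malat1 and Pvt1. Without the 2 mice farthest from the median these were -0.50 and -0.56, and with median centring both turned positive (0.47 and 0.51). The other 11 pairs had an r between -0.36 and 0.36 and an adjusted permutation p of 0.367 or more. After subtracting group means, r was -0.57 for Neat1 with Pvt1 and -0.73 for Malat1 with Pvt1, and among these 11 pairs it was 0.70 for Pvt1 with Snhg1 and -0.57 for Neat1 with Snhg1. On the first and second slides r was -0.38 and 0.31 for Pvt1 with Snhg1, and 0.13 and -0.72 for Neat1 with Snhg1. The points of a pair share the array, its reference RNA and its normalization curve, and the part of these in the relations was not tested.

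**Figure D4:**
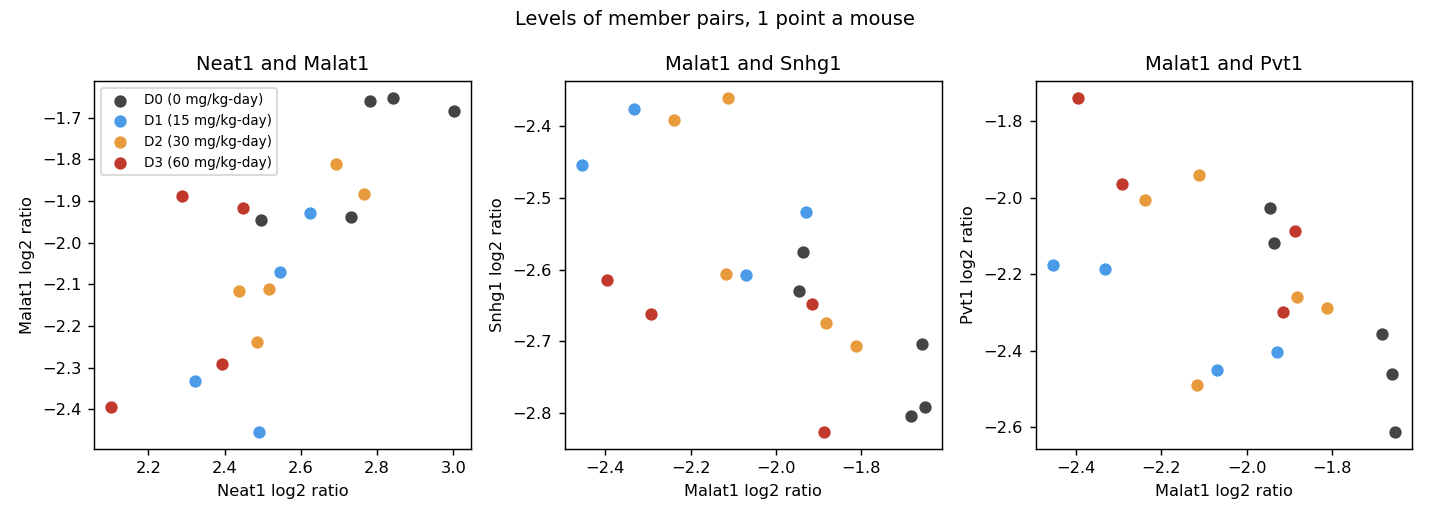
Log2 ratios of 3 pairs of members, with 1 point for each of 18 mice coloured by dose group (both axes are log2 ratios of lung over reference RNA). Neat1 and Malat1 lie along a rising line (r = 0.76), and Malat1 runs opposite to Snhg1 (r = -0.69) and to Pvt1 (r = -0.61), which turned positive with median centring.

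Genes whose levels were most like a member's over the 18 mice are named as a description. For Neat1 these were Abi3bp (r = 0.93), the RNA helicase Ddx17 (r = 0.90) and the m6A reader Ythdc1 (r = 0.90). For Malat1 they were Nhsl2 (r = 0.92), the phosphatase Ptpn2 (r = 0.91) and Akap11 (r = 0.91). Pvt1 was nearest to Wsb2 and Rrn3, a factor of RNA polymerase I transcription (r = 0.87 for each). The values were lower for Snhg1 (Osgep, r = 0.85), Snhg12 (Nfkbil1, r = 0.80) and Meg3 (Zmynd10, r = 0.81). The third gene for Meg3 was the imprinted Cdkn1c (r = 0.79). For H19, by its brightest probe, the nearest was Krtap19-4 (r = 0.89). These are the highest of all gene symbols tested, so high values are given by the choice.

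Proteins of the nuclear bodies were described next to their RNAs at D3, each by its brightest probe. Of 15 paraspeckle proteins, 3 fell and 0 rose by the limma adjusted p (12.4% of all tested probes passed). The 3 were Rbm14 (-0.35), Cpsf7 (-0.39) and Tardbp (-0.31), and the median of the list was -0.04, against -0.002 over all probes tested. Of 15 nuclear speckle proteins, 4 fell and 0 rose, namely Srrm2 (-0.63, called), Srsf3 (-0.42), Srsf7 (-0.35) and the kinase Clk1 (-0.29), all with roles in splicing. The median of that list was -0.19.

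Among 13 other snoRNA host genes, 1 fell at D3 (Rpl13a, -0.30) and 0 rose, with a median of -0.02. Of 12 nonsense-mediated decay factors, 0 passed the adjusted p at any dose in the limma fit, and the largest change was that of Upf3a at D3 (0.28, adjusted p = 0.0852). An unadjusted p under 0.05 was reached by 2, 0 and 1 of them at the 3 doses, against 19.8%, 14.7% and 26.2% of all tested probes. Of 79 cytosolic ribosomal proteins 15 fell and 1 rose at D3, with a median of -0.18, where 12.4% of all tested probes passed in either direction. The 1 that rose was Rps27l (1.01, called), a known p53 target. Among 16 imprinted genes, 4 rose at D3, namely Mest (0.60, called), Ascl2 (0.46), Kcnq1 (0.41) and Igf2r (0.39), and 1 fell (Nnat, -0.46), against the same 12.4%. Dlk1 and Igf2, the imprinted partners of Meg3 and H19, changed by -0.32 (adjusted p = 0.152) and 0.02.

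The nearest tested genes on either side of the 8 members were 14 genes, of which 3 rose at D3 and 0 fell, against 12.4% of all tested probes that passed in either direction. Among them were Frmd8, next to Neat1 (0.26), and Rab42, next to Snhg12 (0.46). Rab42 also passed at D1 (0.39) and D2 (0.41). The median of the neighbours was 0.03 at D3.

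Markers of other tissues varied between mice. The mean log2 ratio of 7 cardiac muscle markers ranged from 2.08 to 2.67 in D0, 0.55 to 4.05 in D1, 0.45 to 3.20 in D2 and 0.53 to 3.54 in D3. Of these 7 markers, 0 passed the adjusted p at any dose in the limma fit. At an unadjusted p under 0.05 it was 1, 0 and 0 of 7, against 19.8%, 14.7% and 26.2% of all tested probes. At D3, 1 of 7 lung epithelial markers fell (Abca3, -0.48), 1 of 4 endothelial markers rose (Pecam1, 0.66), 1 of 7 mesenchymal markers fell (Dcn, -0.82), 1 of 4 leukocyte markers fell (Itgam, -0.36) and 1 of 4 adipocyte markers fell (Cidec, -0.70), where 12.4% of all tested probes passed in either direction. The other adipocyte markers stood at 0.27 to 0.46 and did not pass (Retn 0.46, Adipoq 0.41, Plin1 0.27), and the median of the 4 was 0.34. The median of the 7 lung epithelial markers was -0.372 at D1, -0.096 at D2 and -0.355 at D3, against -0.002 over all probes at D3. An unadjusted p under 0.05 was reached by 2, 1 and 2 of these 7 markers. At D3 the medians were 0.05 for endothelial, -0.05 for leukocyte and -0.11 for mesenchymal markers. Fewer cells of a type and less RNA per cell cannot be told apart in whole lung, and the part of cell composition in the Neat1 and Malat1 differences was not tested.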

How the data were processed

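Two-colour Agilent mouse arrays were run on 18 lungs (19 arrays, with 2 of mouse 35 averaged as 1 sample, taken by their numbers as 1 animal). The deposited scanner files hold median spot intensity values, read per the file headers with Feature Extraction 11.0.1.1 on a G2505C scanner (array design on mm9). The deposited series table holds log2 ratios normalized by the authors, used as an alternative.

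Spots that the software marked as controls or outliers were left out. Loess with a span of 0.3 was applied to the median signals of each array without background subtraction, and replicate spots were then averaged per probe. A probe was tested where the red signal was well above background in at least 4 mice of 1 group (30999 of 55681 probes). All 4 groups entered 1 linear model in limma (version 3.58.1, R 4.3.3), with slide as a block only in an alternative. Correlations were tested in Python with numpy. The methods' MAANOVA with residual shuffling was not run. The number of arrays limits the precision of every value. Whether each mouse was a separate animal rests on the mouse numbers in the labels, which are not shared between groups.

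All member probes were named, and from each list the genes called and, where none was, the one with the largest change. Genes that passed the adjusted p were added after their values were seen. The members and lists were chosen with earlier results of these data known. Identifiers were matched to RefSeq (21465 of 22765). D2 mouse 23 was kept in D2 as labelled, although its number and the group sizes in the methods point to D1, and was counted in D1 in an alternative. Both the fit and the filter were tested on simulated data. One neighbouring gene is not reported here by name.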

Additional observations from a re-analysis of the deposited data

Results flagged for a closer look

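In groups of 4 or 5 mice, a mouse was noted where its gap to the nearest other was large against the group's range (Dixon's criterion), which was met in 5 of 80 groups of member probes, where chance gives about 1 in 20. Of the Neat1 probes, A_30_P01023251 read 1.59 and A_30_P01029720 read 2.03 in D1 mouse 21, below the rest of D1, and A_30_P01025798 read 2.55 in D0 mouse 3, above the rest of D0. Of the Pvt1 probes, A_55_P2051254 read -2.77 in D0 mouse 1 and -2.65 in D2 mouse 28, each above the rest of its group.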

How the results depend on the processing

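The count of member probes called (adjusted p and 1.5-fold) was 0 under every alternative run, at each dose, for the trend and between doses. The count passing the adjusted p alone, by limma, was 0 at D1, 0 at D2, 1 at D3 and 1 for the trend. With median centring it was 0 at D3 and 0 for the trend, with the deposited log2 values it was 0 for the trend, and with the red channel alone 2 at D3 (Neat1 and Pvt1). For the trend the red channel alone also gave 1, which was Pvt1 (adjusted p = 0.0102) and no longer Neat1 (adjusted p = 0.0604). With slide as a block it was 1 at D1, 1 at D2, 3 at D3 and 2 for the trend. Without the slide block, and with the probes named in the scanner files counted too (chosen after seeing the data), it was 3, 1, 7 and 5. The count of these probes with the slide block is not given. When each mouse was left out in turn, the count ranged from 0 to 1 at D1 (1 without D1 mouse 24) and from 0 to 1 for the trend. It was 0 for the trend without D3 mouse 32, D0 mouse 3, D0 mouse 4 or D3 mouse 35, each time because the adjusted p of Neat1 rose past 0.05 (0.0516 to 0.0741). The change of Neat1 at D3, by its probe matched by accession, passed under every alternative except median centring.

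Median centring turned 3 member probes that had passed at D1, to 0.13 for Neat1 A_30_P01021631, to 0.0095 for Malat1 A_30_P01020325 and to 0.0065 for Malat1 A_30_P01031072, and the cause was not tested. Of the other changes of single probes under an alternative, 2251 kept direction and side of the threshold, 111 no longer passed, 47 newly passed and 104 without a call changed sign.

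Of 15 pairs, 4 passed the adjusted permutation test. This was 13 with median centring, 2 with the scanner software's processed signals, 2 with the red channel alone, and from 2 to 4 when each mouse was left out (2 without D3 mouse 32, D0 mouse 4 or D0 mouse 5, where both pairs with Pvt1 no longer passed). These alternatives for pairs were chosen after seeing the data. Median centring turned the r of Pvt1 with Neat1 to 0.47 and with Malat1 to 0.51, of Snhg1 with Neat1 to 0.78 and with Malat1 to 0.70, of Meg3 with Neat1 to 0.70, with Malat1 to 0.66 and with Snhg1 to 0.66, and of Pvt1 with Snhg12 to 0.54.

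No paired analysis was possible because mouse numbers are not shared between groups, and arrays that lay on 1 slide were matched through the slide block instead. With mouse 23 counted in D1, the counts of probes by accession that passed were 0 at D1, 0 at D2, 1 at D3 and 1 for the trend. The normexp alternative used median signals, since the files used here hold no mean signals. Dim probes, with red signals of 106 to 359 for Pvt1 and the second Meg3 probe near array medians of 114 to 152, limit the detection of changes in these members.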

Other observations

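Among 17 other long noncoding RNAs tested, each by its brightest probe, 4 fell and 0 rose at D3 by the limma adjusted p (12.4% of all tested probes passed), with a median of -0.13. These were Kcnq1ot1 (-0.73, called), Rmrp (-0.72, called), the RNA component of a mitochondrial and nucleolar ribonuclease, Mir17hg (-0.57), the host transcript of a microRNA cluster, and Ftx (-0.31). Mir17hg read 0.18 to 0.56 in D0 and -0.37 to -0.08 in D3, without overlap.

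Probes of the same RNA did not all move alike. Of 6 tested Kcnq1ot1 probes, the brightest fell and was called, while the other 5 ranged from -0.21 to -0.10 and did not pass. Of 8 tested Tug1 probes, 1 fell by 0.79 at D3 and was called, while the other 7 ranged from -0.10 to 0.34 and did not pass the adjusted p. Of 4 tested Norad probes, A_55_P2106961 fell at D1 (-0.37, adjusted p = 0.0442), D2 (-0.45, adjusted p = 0.0183) and D3 (-0.40, adjusted p = 0.0157) without reaching 1.5-fold, while the other 3 ranged from -0.37 to -0.07 at D3 and did not pass by limma.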
